A study of Homo sapiens with 47 samples.

Results

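Of 47 single HEK293 cells, the 24 described here were chosen by 1 measured value, the share of a cell's endogenous unique molecular identifiers (UMIs) that belong to the histone H4 gene HIST1H4C. The 12 cells with the highest share are called high cells, the 12 with the lowest share low cells, and the 23 between them middle cells. The HEK293 line was derived long ago from human embryonic kidney by transformation with sheared adenovirus DNA and grows without limit. The cells were grown in DMEM with glutamine and fetal calf serum, received no treatment the labels name, and were lysed on a Fluidigm C1 circuit with ERCC spike-in RNA at 20000 molecules per cell. Messenger RNA was copied from an oligo-dT primer with template switching, 5' ends carrying a UMI were kept after 18 PCR cycles, and the pooled library was sequenced on an Ion Torrent Proton. All cells come from 1 line and their names share 1 stem, and no separate cultures are named. The names of the count columns add the word both, which no label explains.

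Replication-dependent histone genes are transcribed at high level while DNA is copied in S phase, when new chromatin needs histones, and their mRNAs are degraded when replication ends. Most of these mRNAs end in a stem-loop and carry no poly(A) tail, so an oligo-dT primer captures only part of them. Genes of replication licensing and nucleotide supply, driven by E2F factors, are transcribed before and during S phase. Genes of mitotic entry, the spindle and the kinetochore are transcribed mainly in G2 and M phase, and many carry a promoter element called the cell cycle homology region (CHR).

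The histone H4 share spread widely between cells. In the high cells HIST1H4C took 0.880% (cell 21) to 1.63% (cell 8) of endogenous UMIs, with a median of 0.998%, and in the low cells it took 0.0905% (cell 57) to 0.189% (cell 55), with a median of 0.126%. The middle cells had a median of 0.577%, and the highest cell stood 18.0-fold above the lowest. There was no gap at either boundary, since the first cell outside the high set (cell 27) had 0.875% and the first outside the low set (cell 86) had 0.190%. In UMIs the high cells held 294 to 759 of HIST1H4C and the low cells 45 to 119. These values chose the cells and are a description.

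**Figure D1:**
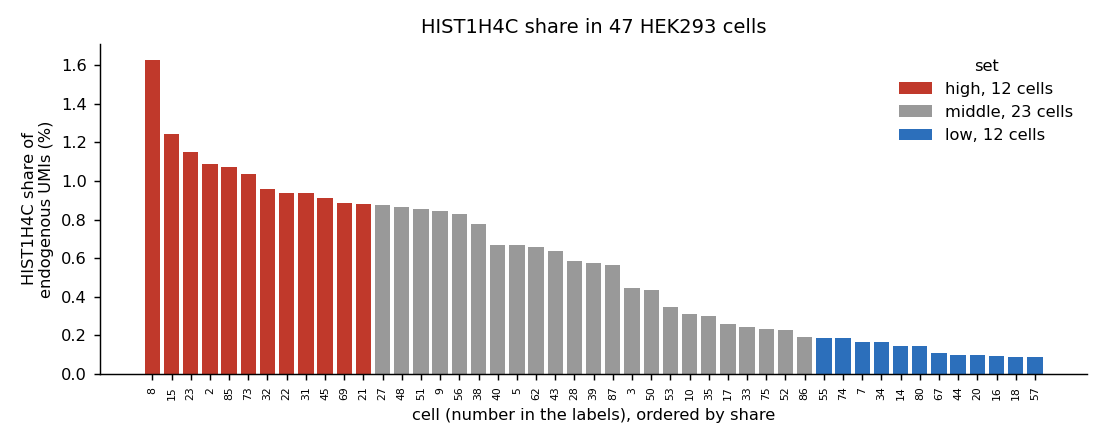
HIST1H4C UMIs as a percent of the endogenous UMIs of each of the 47 cells (vertical axis), ordered from the highest share at left to the lowest at right, with the 12 high, 23 middle and 12 low cells in different colours. Shares run from 1.63% in cell 8 to 0.0905% in cell 57 without a break at the boundaries of the sets.

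Both sets were of like depth. High cells had 29325 to 83133 endogenous UMIs (median 54373), and low cells had 34030 to 71571 (median 57197). Endogenous UMIs per spike-in UMI, a measure of the RNA content of a cell, was 9.89 to 22.8 in high cells (median 18.8) and 12.3 to 22.1 in low cells (median 15.3). Thinned to 29325 UMIs each, high cells had 4202 to 5506 detected genes (median 4823) and low cells 4653 to 5567 (median 5278), and the part of this in the gene results below was not tested. Spike-in recovery, which gauges capture of the added RNA only, had a median of 15.6% in high cells and 16.4% in low cells. For a cell's own mRNAs, fewer captured and fewer present cannot be told apart. The cells of a set share 1 culture as far as the labels say, so each set counts as 1 sample and no test between the sets was made. Levels are given as UMIs per 10000 endogenous UMIs, and the ratio is the pooled level in the 12 high cells over that in the 12 low cells. Its exact 95% interval covers counting error only.

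The other HIST1 genes followed HIST1H4C. Their 32 rows together held 496 UMIs in high cells and 91 in low cells, a ratio of 5.68 (4.54 to 7.19). Per cell they summed to 4.81 to 11.9 per 10000 in high cells (median 7.51) and to 0.576 to 2.94 in low cells (median 1.30), so the sets did not overlap. Among the linker histone genes, HIST1H1E had 98 UMIs in high cells and 12 in low cells, a ratio of 8.52, HIST1H1C had 75 in high cells and 13 in low cells, a ratio of 6.02 (9.28 without low cell 14), and HIST1H1D had 49 in high cells and 1 in low cells, a ratio of 51.1 (8.75 to 2059). The H3 gene HIST1H3B had 59 UMIs in high cells and 6 in low cells, and the H2A gene HIST1H2AM had 37 in high cells and 2 in low cells, a ratio of 19.3 (4.98 to 165) that was 35.5 without low cell 7 and 34.6 without low cell 18. HIST1H4E had 14 UMIs in high cells and none in low cells, and the lower limit of the interval of its ratio was 3.46. HIST1H2BK had the smaller ratio of 1.76 (1.09 to 2.89). Its mRNA can also be polyadenylated, and whether that bears on the ratio was not tested. Reads of the near-identical H4 copies could have been split or shared by the counting, and the other H4 rows of the HIST1 clusters held only 46 UMIs over the 47 cells. The HIST1 genes are a description of the chosen cells, and nothing below rests on them. Outside HIST1, HIST2H2AC had 20 UMIs in high cells and 11 in low cells, a ratio of 1.90 (0.87 to 4.38; 1.39 without high cell 69), and HIST3H2A had 10 in each set.

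Across all other genes, differences were moderate. Of 3679 genes with at least 100 UMIs over the 47 cells, 240 (6.52%) were at least 1.5-fold higher in the high cells and 450 (12.2%) at least 1.5-fold lower, and the median ratio was 0.976. Scaled by spike-ins in place of endogenous UMIs, the counts were 304 higher and 374 lower, since the spike-in scaled total of the high cells was 0.06 higher on the log2 scale. No gene outside HIST1 kept the 12 high cells wholly apart from the 12 low cells, above or below (0 of 3679, 0%). In either direction 18.8% of genes were past 1.5-fold, and among genes with at least 500 UMIs 16 were higher and 14 lower. Among 2078 genes with at least 200 UMIs, 31 (1.49%) stayed past 1.5-fold higher and 59 (2.84%) stayed past 1.5-fold lower whichever of the 24 cells was left out.

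**Figure D2:**
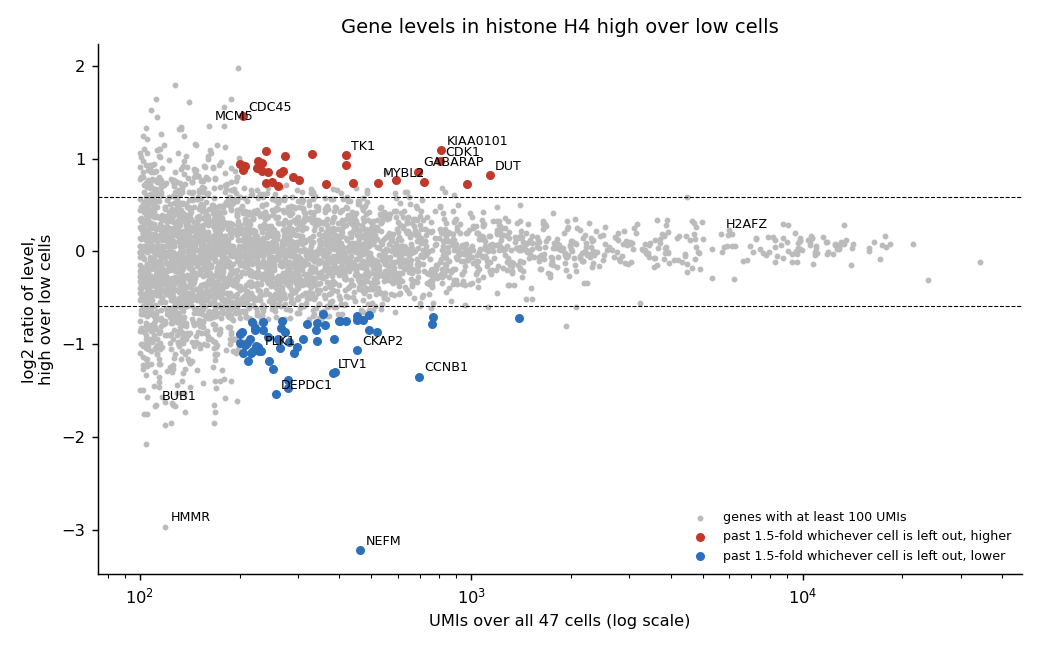
UMIs of each gene over all 47 cells (horizontal, log scale) against the log2 ratio of its level in high over low cells (vertical) for the 3679 genes with at least 100 UMIs, with dashed lines at 1.5-fold and in colour the genes with at least 200 UMIs past that fold whichever cell is left out. The spread narrows as UMIs increase, CDC45, KIAA0101 and TK1 lie near the top, and NEFM and CCNB1 lie below most genes of their abundance.

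DNA replication genes were higher in the high cells as a sum, but by little. The 87 listed genes of licensing, fork and nucleotide supply summed to 98.7 per 10000 in high cells and 84.1 in low cells, a ratio of 1.17 (1.13 to 1.22). Of the 66 with at least 100 UMIs, 12 (18.2%, against 6.52% of all genes) were at least 1.5-fold higher and 3 (4.55%, against 12.2%) at least 1.5-fold lower, and their median ratio was 1.15. Cell by cell the sum ran between 84.2 and 124 per 10000 in high cells (median 90.6) and between 69.8 and 94.5 in low cells (median 85.3), so the sets overlapped. Of the 12 high cells, 5 were above the median of all 47, against 4 of the 12 low cells. The parts of the list differed in this count, which was 7 high and 1 low cells for licensing genes, 6 high and 4 low for fork genes, and 8 high and 2 low for nucleotide supply genes. The cells are called by their histone H4 share here, since 7 of the 12 high cells were not above the median for the combined list.

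Licensing genes, which load the MCM helicase on origins and start it, had a summed ratio of 1.22 (1.13 to 1.32), with 6 of 19 (31.6%, against 6.52% of all genes) at least 1.5-fold higher and 1 (5.26%, against 12.2%) lower. The summed ratio was 1.37 in cells numbered up to 48 (9 high, 7 low) but 1.06 in cells above 48 (3 high, 5 low). With 16 cells in each set it was 1.09. CDC45, part of the active replicative helicase, ran from 0 to 1.97 per 10000 in high cells (median 0.925) and from 0 to 1.57 in low cells (median 0.345), a ratio of 2.74 (1.74 to 4.44). The low cells sat mostly below the high ones but the ranges overlapped. MCM6, a helicase subunit, had 0.236 to 2.13 in high cells (median 0.827) and 0 to 1.31 in low cells (median 0.205), a ratio of 2.56 (1.53 to 4.41). MCM5, another subunit, had the same 54 UMIs in high cells and 22 in low cells. The origin recognition gene ORC3 had a ratio of 2.03 (1.16 to 3.68). Other members differed less or the other way: MCM7 had a ratio of 1.24, GMNN, whose product blocks relicensing, one of 1.02 (0.83 to 1.24), and MCM10 one of 0.63 (0.36 to 1.09), which ran up to 0.72 (without low cell 18) as each cell was left out.

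Fork genes had a summed ratio of 1.12 (1.06 to 1.18), with 3 of 31 (9.68%, near the 6.52% of all genes) at least 1.5-fold higher and 1 (3.23%, against 12.2%) lower. KIAA0101, a PCNA-binding factor, showed the clearest separation among the abundant ones. It had 1.35 to 5.39 per 10000 in high cells (median 3.71) and 0.699 to 4.27 in low cells (median 1.37), a ratio of 2.13 (1.69 to 2.70). RFC5, a subunit of the loader that places the PCNA clamp, had 65 UMIs in high cells and 35 in low cells, a ratio of 1.94 (1.27 to 3.01). PCNA itself had 158 UMIs in high cells and 112 in low cells, a ratio of 1.47 (1.15 to 1.89; 1.32 to 1.72 as each cell was left out), and its level in low cells ran up to 4.93 in cell 20, above every high cell. The loader subunit RFC3 was lower in high cells, with a ratio of 0.63 (0.45 to 0.86; 0.68 without high cell 69), while RPA2, of the single-strand binding complex, had a ratio of 1.18 (1.03 to 1.36).

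Nucleotide supply genes had a summed ratio of 1.22 (1.14 to 1.30), with 3 of 16 (18.8%, against 6.52% of all genes) at least 1.5-fold higher and 1 (6.25%, against 12.2%) lower. DUT, which removes dUTP before it is built into DNA, had 3.02 to 6.70 per 10000 in high cells (median 4.83) and 1.47 to 3.92 in low cells (median 2.76), a ratio of 1.77 (1.46 to 2.13). The median high cell was above the highest low cell, cell 80. TK1, the thymidine salvage kinase, had 116 UMIs in high cells and 59 in low cells, a ratio of 2.05 (1.49 to 2.86), which was 1.60 to 2.27 as each cell was left out. RRM2, the ribonucleotide reductase subunit that varies with the cycle, had a ratio of 1.49 (1.11 to 2.01). CAD, which carries out the first steps of pyrimidine synthesis, was lower in high cells, with 18 UMIs there against 50 in low cells, a ratio of 0.38 (0.21 to 0.65).

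The promoters of MCM6 and KIAA0101 are shown because each held an E2F-type motif (TTTCCCGC, TTTGGCGC, TTTCGCGC or TTTGCCGC, on either strand) that many genes of this group share. They are RefSeq windows of build GRCh38.p14 (the counts themselves were made on hg19), 250 bases before to 50 after the transcription start, read 5′ to 3′ on the strand of the gene, with motif letters in capitals. In MCM6 the matches on opposite strands overlap. KIAA0101 has 2 windows, of which the 1 with the motif is shown and the other held none.
MCM6 (chr2:135876394-135876693, minus strand): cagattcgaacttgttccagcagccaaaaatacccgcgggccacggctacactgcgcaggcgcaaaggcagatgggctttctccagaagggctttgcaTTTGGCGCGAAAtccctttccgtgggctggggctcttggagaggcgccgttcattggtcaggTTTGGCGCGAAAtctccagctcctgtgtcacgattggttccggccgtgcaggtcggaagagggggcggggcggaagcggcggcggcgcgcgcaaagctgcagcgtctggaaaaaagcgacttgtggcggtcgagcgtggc
KIAA0101 (chr15:64381392-64381691, minus strand): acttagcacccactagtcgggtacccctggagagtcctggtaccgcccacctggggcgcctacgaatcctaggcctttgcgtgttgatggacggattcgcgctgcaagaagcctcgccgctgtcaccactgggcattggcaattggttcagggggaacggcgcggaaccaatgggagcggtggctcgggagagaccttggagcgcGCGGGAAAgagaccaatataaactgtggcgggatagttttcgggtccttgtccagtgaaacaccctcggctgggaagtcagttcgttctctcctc
Of the 66 DNA replication genes with at least 100 UMIs, 56 had a window by symbol, and 26 of the 56 (46.4%) held such a motif. The share was 8.47% among the 3035 genes with a searched window and at least 100 UMIs. It was 3.99% among the 27305 genes with a searched window. The search left out part of the genome, so a gene can lack a window for that reason as well as by symbol. A gene with several windows counted as holding the motif if any of them did. The windows of CDC45, RFC5, TK1, RRM2 and MYBL2, which were also higher in high cells, held none. PCNA, DUT, CDC25A and CDK1, higher as well, held it in some or all of their windows. Of the 31 genes that stayed higher whichever cell was left out, 26 had a window and 4 held the motif. A match is a description of the letters and shows no binding.

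Regulators of S phase entry had a summed ratio of 1.16, with 3 of 14 (21.4%, against 6.52% of all genes) at least 1.5-fold higher and 2 (14.3%, near the 12.2% of all genes) lower. CDKN2C, an inhibitor of CDK4 and CDK6, had a ratio of 2.21 (1.36 to 3.67), CDC25A, the phosphatase that activates CDK2, one of 1.72 (1.04 to 2.92), and the transcription factor gene MYBL2 one of 1.67 (1.29 to 2.18). MYBL2 had 1.21 to 4.43 per 10000 in high cells (median 2.19) and 0.595 to 2.04 in low cells (median 1.48). Of the cyclin D genes, CCND1 had a ratio of 0.61, CCND2 one of 0.56 and CCND3 one of 0.83 (0.44 to 1.56). For CCND1 cell 20 of the low set held the highest level, 3.00 per 10000, and without it the ratio was 0.74. For CCND2 the ratio was 0.82 without low cell 14.

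Histone handling genes did not follow the histone mRNAs as a group. The 26 chaperone and histone mRNA processing genes had a summed ratio of 0.971 (0.923 to 1.02), with 1 of 18 (5.56%, against 6.52% of all genes) at least 1.5-fold higher and 3 (16.7%, against 12.2%) lower. SLBP, which binds the histone stem-loop, had 73 UMIs in high cells and 68 in low cells, a ratio of 1.12 (0.79 to 1.58). CHAF1A, of the assembly factor that places new H3 and H4 behind the fork, had a ratio of 2.22 (1.19 to 4.30). LSM10, of the U7 particle that cuts histone pre-mRNA, had a ratio of 0.61 (0.43 to 0.85; 0.73 without low cell 16), and the chaperone gene ANP32B one of 0.56 (0.41 to 0.75). Replication-independent histone variants, whose mRNAs are polyadenylated, had a summed ratio of 1.06 (1.00 to 1.12), and 0 of 8 were past 1.5-fold in either direction. The most abundant, H2AFZ, had 10.8 to 25.5 per 10000 in high cells (median 19.7) and 11.7 to 23.6 in low cells (median 16.1).

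**Figure D3:**
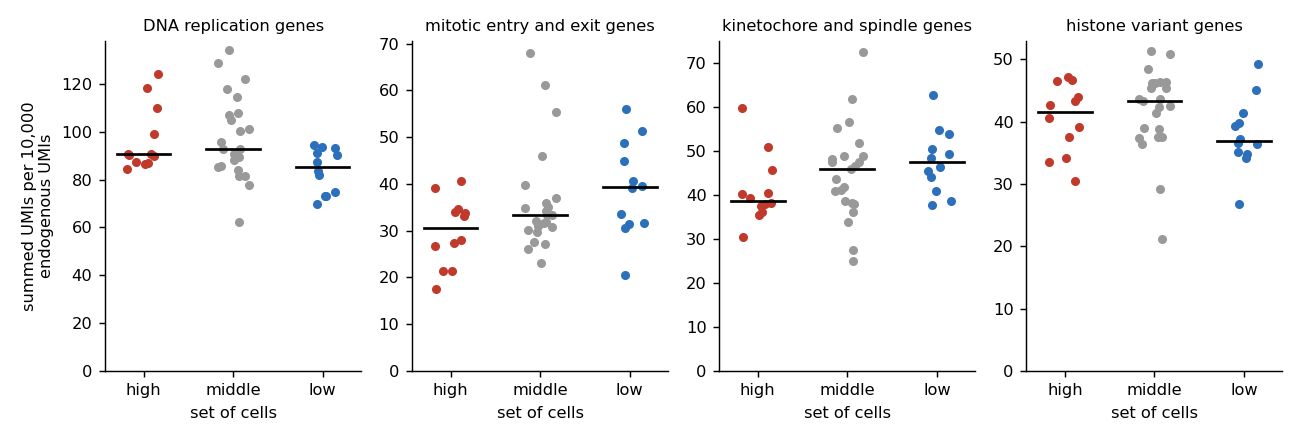
Summed level of the genes of a list in each cell, in UMIs per 10000 endogenous UMIs (vertical), for DNA replication, mitotic entry and exit, kinetochore and spindle, and histone variant genes, with high, middle and low cells from left to right and a line at each median. Every panel shows overlapping sets, with medians for mitotic entry and exit genes of 30.6 in high cells and 39.4 in low cells.

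G2/M genes were lower in the high cells as a sum. The 112 listed genes with a row summed to 106 per 10000 in high cells and 121 in low cells, a ratio of 0.877 (0.849 to 0.905), and per cell they ran from 75.4 to 142 (median 103) in high cells and from 81.1 to 162 (median 118) in low cells. Of 72 with at least 100 UMIs, 8 (11.1%, against 6.52% of all genes) were at least 1.5-fold higher and 18 (25.0%, against 12.2%) at least 1.5-fold lower. With 16 cells in each set the summed ratio was 1.00, and the direction was lost. The difference lay in the regulators of mitotic entry and exit, at 0.767 (0.723 to 0.813), and in kinetochore and spindle genes, at 0.880 (0.836 to 0.927), whereas mitotic chromosome genes stood at 1.01 (0.947 to 1.07).

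Among mitotic regulators, 8 of 21 (38.1%, against 12.2% of all genes) were at least 1.5-fold lower in high cells and 1 (4.76%, against 6.52%) higher. CCNB1, the cyclin that drives entry into mitosis, had 0.304 to 2.57 per 10000 in high cells (median 1.26) and 1.47 to 6.01 in low cells (median 3.00). All low cells were above the median high cell, and the ratio was 0.39 (0.30 to 0.50). Its kinase partner CDK1 went the other way, with 169 UMIs in high cells and 90 in low cells, a ratio of 1.96 (1.51 to 2.56). CDK1 had medians of 2.19 in high cells and 0.658 in low cells, but 3.32 in the middle cells, and low cell 18 had the highest value of either extreme set, 5.33, without which the ratio was 2.98. PLK1, the mitotic kinase, had 32 UMIs in high cells and 70 in low cells, a ratio of 0.48 (0.30 to 0.73). BUB1, of the spindle checkpoint, had 14 in high cells and 46 in low cells, a ratio of 0.32 (0.16 to 0.59). CKS2, which binds CDK1, had a ratio of 0.61 (0.52 to 0.71) and PTTG1, the securin gene, one of 0.58 (0.47 to 0.72).

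Of the kinetochore and spindle genes, 8 of 31 (25.8%, against 12.2% of all genes) were at least 1.5-fold lower in high cells and 3 (9.68%, near the 6.52% of all genes) higher. HMMR, a spindle-associated hyaluronan receptor, had the lowest ratio of the list, with 7 UMIs in 4 of 12 high cells and 57 UMIs in 11 of 12 low cells, a ratio of 0.13 (0.05 to 0.28) that was 0.08 without high cell 21. CENPE, a kinetochore motor, had 23 UMIs in high cells and 63 in low cells, a ratio of 0.38 (0.23 to 0.62). CKAP2, a spindle microtubule protein, had a ratio of 0.48 (0.35 to 0.64), whereas NUSAP1, also a spindle protein, was higher in high cells at 1.56 (1.22 to 2.01; 1.45 without high cell 21). Of the mitotic chromosome genes, 4 of 20 (20.0%, against 6.52% of all genes) were at least 1.5-fold higher and 2 (10.0%, near the 12.2% of all genes) lower. The condensin II gene NCAPG2 had a ratio of 1.81 (1.00 to 3.37) and the condensin I gene NCAPG one of 1.71 (1.05 to 2.85; 0.973 with 8 cells in each set), while HMGB3 had 0.60 (0.43 to 0.82) and the histone chaperone gene ANP32E 0.53 (0.33 to 0.82).

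The promoters of HMMR and PLK1 are shown because each held the CHR letters TTTGAA on the strand of the gene, in capitals, a short distance before the start. Source, build and window are as for MCM6.
HMMR (chr5:163460382-163460681, plus strand): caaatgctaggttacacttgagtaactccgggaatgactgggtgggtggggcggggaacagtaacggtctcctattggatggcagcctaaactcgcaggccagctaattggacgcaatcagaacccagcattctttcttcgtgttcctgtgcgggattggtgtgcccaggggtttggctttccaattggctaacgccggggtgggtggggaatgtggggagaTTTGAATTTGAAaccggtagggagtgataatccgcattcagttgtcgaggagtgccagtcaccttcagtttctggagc
PLK1 (chr16:23678639-23678938, plus strand): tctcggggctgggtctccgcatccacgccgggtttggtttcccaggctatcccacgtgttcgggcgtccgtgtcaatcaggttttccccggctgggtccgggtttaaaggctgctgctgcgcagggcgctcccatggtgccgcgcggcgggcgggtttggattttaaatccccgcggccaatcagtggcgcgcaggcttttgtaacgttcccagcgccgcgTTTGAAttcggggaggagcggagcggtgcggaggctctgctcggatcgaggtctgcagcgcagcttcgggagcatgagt
TTTGAA or TTCGAA, on either strand, stood in the windows of 43 of 61 G2/M genes (70.5%). Among genes with a searched window the share was 15.2% for those with at least 100 UMIs and 19.5% for all of them. Among the DNA replication genes it stood in 7 of 56 (12.5%). BUB1, CKS2 and DEPDC1 held it, and CCNB1, CENPE, CKAP2 and PTTG1 did not, all of them lower in high cells. CDK1, MCM6 and DUT, all higher in high cells, each held both the E2F and the CHR letters in their windows. In the printed MCM6 window the letters TTCGAA stand near the 5′ end and are left in lower case. Of the 59 genes that stayed lower whichever cell was left out, 48 had a window and 11 of them (22.9%) held the CHR letters. Of the 31 that stayed higher, 26 had a window and 5 of them (19.2%) held these letters, a similar share.

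**Figure D4:**
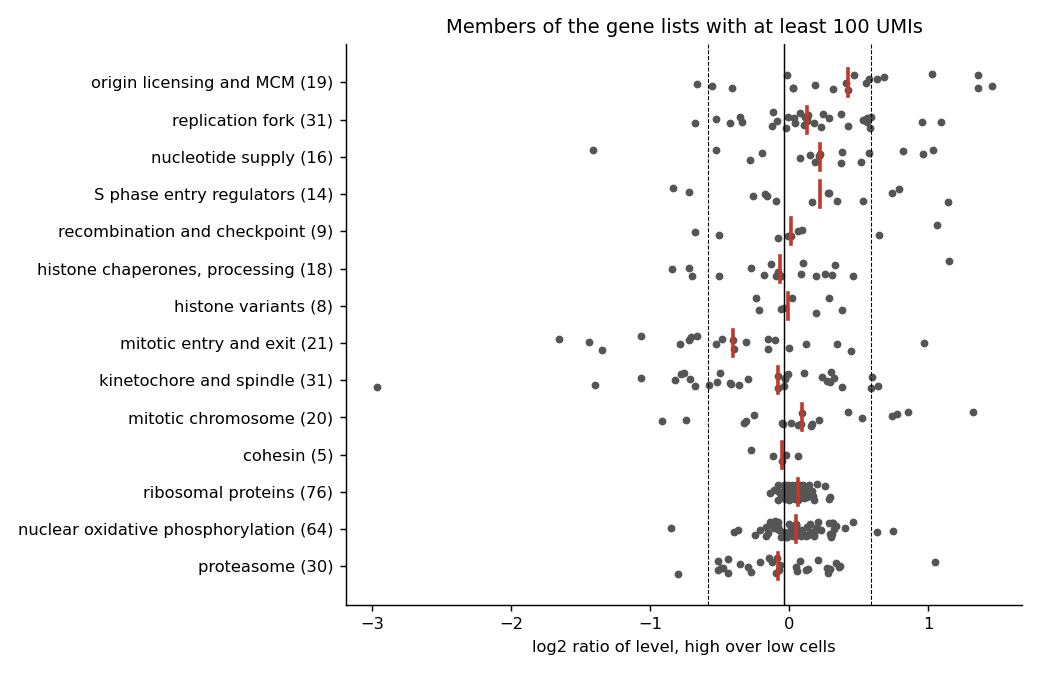
Log2 ratio of level in high over low cells (horizontal) for each member with at least 100 UMIs of 14 gene lists (vertical, number of members in brackets), with a red line at the median of the list, a black line at the median of all genes and dashed lines at 1.5-fold. Licensing members lie mostly to the right and mitotic entry and exit members mostly to the left, and ribosomal proteins lie close to the black line.

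Neither set was uniform across the cycle lists. Against the medians of all 47 cells, the 12 high cells comprised 1 above for both DNA replication and G2/M genes, 4 above for DNA replication genes only, 2 for G2/M genes only and 5 for neither. The 12 low cells comprised 2 above for both, 2 for DNA replication genes only, 6 for G2/M genes only and 2 for neither. The 23 middle cells comprised 7 above for both, 7 for DNA replication genes only, 5 for G2/M genes only and 4 for neither. Of the 12 cells with the highest DNA replication sum, 3 were high cells and 0 were low cells. Among the 12 lowest were 1 high cell and 6 low cells. Each set is 12 of the 47 cells, so 3 of 12 is near the share of high cells among all cells. In the high set, cells 45, 32 and 73 led the DNA replication genes with 124, 118 and 110 per 10000, while cell 21 had the lowest DNA replication sum, 84.2, and the highest G2/M sum, 142. In the low set, cell 16 led the G2/M genes with 162, and cell 14 had 81.1. The 4 cells with the highest histone H4 share, 8, 15, 23 and 2, had DNA replication sums of 86.9, 87.5, 90.4 and 90.9, close to the median of all high cells.

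The middle cells did not always continue the order of the extremes. Across all 47 cells, Spearman's rho with the HIST1H4C share was 0.270 for the DNA replication sum and -0.209 for the G2/M sum, and within the 23 middle cells it was 0.078 and 0.495. All points share 1 library pool, and in the middle cells the share also went with depth (rho 0.349 with endogenous UMIs, n = 23). CCNB1 had a rho of -0.46 over 47 cells and 0.24 over the middle 23, DEPDC1 -0.55 and 0.13, and PTTG1 -0.35 and 0.48. LTV1 and HCFC1, both lower in high cells, had -0.40 and 0.65, and -0.22 and 0.58. CDC45 had 0.46 and 0.47, RFC5 0.35 and 0.50, and CDK1 0.29 and 0.37, the same sign in both. KIAA0101 had 0.50 over 47 cells and 0.02 over the middle 23.

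Among genes outside HIST1 with at least 200 UMIs, those most like the HIST1H4C share over the 47 cells, by rho, were PCMT1, a protein repair methyltransferase gene, at 0.60, DUT at 0.55, KIAA0101 at 0.50, and then CDC45, ATP5G1, TALDO1 and DDT at 0.46, RPS13 at 0.44, MYBL2 at 0.43 and GABARAP at 0.41. PCMT1 had 1.91 to 4.21 per 10000 in high cells (median 2.54) and 0.370 to 3.35 in low cells (median 1.5), a ratio of 1.70 (1.33 to 2.19). The most negative were DEPDC1 at -0.55, TMX1 and SNRPA at -0.50, LARP1 at -0.48 and THOC2 at -0.47. HMMR had -0.55, but fewer than 200 UMIs. Within the 23 middle cells, rho was 0.45 for PCMT1, 0.36 for TALDO1, 0.29 for ATP5G1 and 0.26 for DDT. For DUT it was 0.12, for MYBL2 and GABARAP 0.13 and for RPS13 0.02. Of the most negative genes, TMX1 had -0.23 there, THOC2 -0.14, SNRPA 0.007 and LARP1 0.08. The middle values of CDC45, KIAA0101 and DEPDC1 are given above.

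The genes that kept their distance whichever cell was left out joined cycle genes with others. Among the 15 with the highest ratios were CDC45, KIAA0101, TK1, CDK1 and RFC5, and also the proteasome ATPase gene PSMC3 at 2.07, the LIM protein gene PDLIM1 at 2.04, THAP7 at 2.11, GPN3 at 1.96, the mitochondrial calcium regulator MCUR1 at 1.92, HDLBP at 1.91, the lysosomal gene PSAP at 1.90, the haem synthesis gene UROS at 1.87 and AP3S1 at 1.83. Among the 15 with the lowest ratios were CCNB1, PLK1 and the mitotic gene DEPDC1 at 0.34, with 38 UMIs in high cells and 115 in low cells. The others were the RNA exosome gene EXOSC7 at 0.36, the ribosome assembly gene LTV1 at 0.40, SNRPA of the spliceosomal U1 particle at 0.41, HCFC1 at 0.42, the RNA-binding gene LARP1 at 0.44, SNW1, TCEB3, THUMPD3 and TMX1 at 0.47, the selenium metabolism gene SEPHS2 at 0.38 and LPHN1 at 0.44.

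NEFM, the neurofilament medium chain gene, had the lowest ratio of all, 0.11 (0.06 to 0.17), with 19 UMIs in high cells and 184 in low cells. It was concentrated in a few cells, since low cells 7, 57 and 20 held 51, 52 and 32 of the 184. The high cells had 0 to 0.812 per 10000 (median 0.278) and the low cells 0.225 to 9.43 (median 1.17), while the middle median was 0.419. Of 14 neuronal markers, 6 had a row, and their sum had a ratio of 0.542 (0.459 to 0.638). NEFM carried most of it, since the sum without NEFM, tried after seeing the data, had 205 UMIs in high cells and 247 in low cells, a ratio of 0.866 (0.716 to 1.05).

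**Figure D5:**
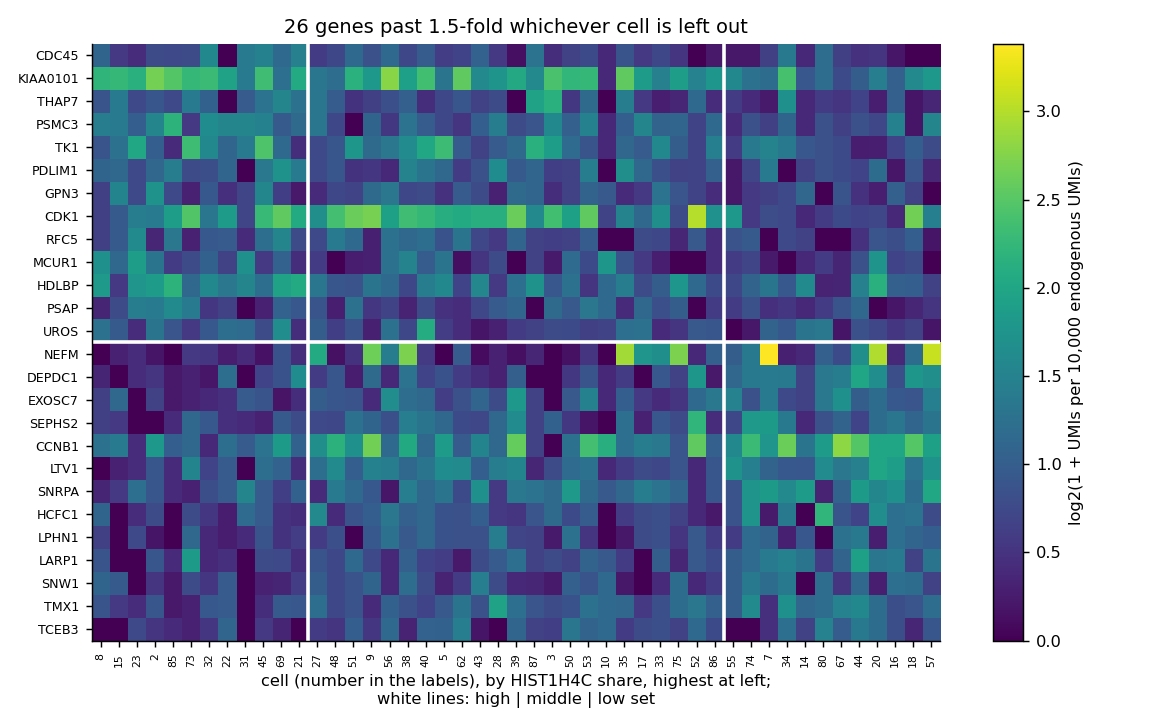
Level of 26 genes (rows, the 13 with the highest ratio above the horizontal line and the 13 with the lowest below it) in each of the 47 cells (columns, ordered by HIST1H4C share with the highest at left), as log2(1 + UMIs per 10000 endogenous UMIs), with white lines between high, middle and low cells. No row separates the sets fully, CDK1 is bright in many middle cells and in low cell 18, and NEFM is bright in a few low and middle cells.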

How the data were processed

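UMI counts of 47 single HEK293 cells were analysed. The counts are whole numbers per gene and cell, deposited by the authors without normalization. The submitters' processing notes name cutadapt 1.2.1, STAR 2.4.0a, hg19 and GRCh37. The annotation, UMI collapsing and the filter on cells are not given in the sources used here. A repeated header row (sum 1859, 0.0602% of all values), 78 spike-in rows and a phage row with 1 UMI were left out, leaving 18650 gene rows. No column was left unmapped and no cell pair was identical. Doublets were not called.

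Cells were ranked by HIST1H4C UMIs over endogenous UMIs, ties to the lower cell number, and UMIs were pooled over the 12 highest (640159) and 12 lowest cells (667662). Ratios carry exact conditional binomial intervals, 95%, counting error only. A gene entered with at least 100 UMIs. Named genes were the 4 highest, 4 lowest and 2 most abundant members of each list, the 15 highest and 15 lowest genes with at least 200 UMIs that stayed past 1.5-fold with each cell left out, and the 10 highest and 5 lowest by rho. Some genes that met these rules are not reported here, and PCNA, SLBP and PTTG1, outside the rules, were added after their values were seen. The cells and lists were chosen with earlier results of these data known. Python 3.11.15, numpy 2.4.6, pandas 2.3.3, scipy 1.17.1 and, for TMM scaling only, edgeR 4.0.16 were used. The script was tested on simulated data.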

Additional observations from a re-analysis of the deposited data

How the results depend on the processing

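With 1 line and no separate cultures named, no setting below is a replicate check. No paired analysis was possible because the result comes from no test and the cells carry no pairing. With 8 cells in each set, 364 genes were higher, 714 lower, and the G2/M ratio was 0.790. With 16 cells in each set 289 genes were lower, and the DNA replication and G2/M ratios were 1.10 and 1.00. Per spike-in UMI these ratios were 1.22 and 0.913. Ranking cells by HIST1H4C per spike-in UMI, which replaced 3 high cells and 1 low cell, gave a G2/M ratio of 0.915. Among cells numbered up to 48 (9 high, 7 low), 391 genes were higher and the G2/M ratio was 0.835. Among those above 48 (3 high, 5 low), 612 were higher, 822 lower, and the G2/M ratio was 0.945. Counts of higher and lower genes were 1372 and 2230 with a minimum of 20 UMIs, 16 and 14 with a minimum of 500, 2208 and 3129 with no minimum but 1 UMI in each set, and 44 and 127 past 2-fold. Leaving out each cell gave 236 to 288 higher genes, 431 to 529 lower genes, DNA replication ratios of 1.13 to 1.19 and G2/M ratios of 0.848 to 0.911. The DNA replication ratio was above 1 under every setting run. Of 8073 values of the 240 named genes under these settings, 273 moved past the counting interval. Only 10 of the settings were not leave-one-out runs. Those runs keep all but 1 of the 24 cells, and some named genes were chosen for staying past 1.5-fold in them. The count therefore says little of how stable the genes are. Among genes past 1.5-fold as reported, 8 values changed side: ANLN (0.986) and NCAPG (0.973) with 8 cells, ANLN (1.00) when ranked by spike-ins, JUND (0.643) after thinning, BARD1 (1.18) and EGR1 (1.49) in cells up to 48, and FOS (0.795) and MALAT1 (0.677) in cells above 48. The causes were not tested. Genes near 100 UMIs have wide intervals, which limits what a single one shows.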

Other observations

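Housekeeping groups lay close to the median of all genes. Cytosolic ribosomal protein genes had a summed ratio of 1.04 in high over low cells, nuclear oxidative phosphorylation genes 1.05, proteasome genes 0.984 and cholesterol synthesis genes 0.985. Glycolysis genes stood at 1.11 (1.07 to 1.14), with 0 of 12 past 1.5-fold. Their summed ratio was 1.01 in cells numbered up to 48 and 1.27 in cells above 48. GAPDH had a median of 35.8 UMIs per 10000 in high cells and 28.7 in low cells. Mitochondrially encoded mRNAs stood at 0.909 (0.891 to 0.926), but their per-cell medians were 320 per 10000 in high cells and 321 in low cells. Their ratio was 1.01 in cells numbered up to 48, 0.810 in cells above 48 and 0.735 when ranked by spike-ins. Mitochondrial ribosomal RNAs stood at 0.872 (0.983 in cells up to 48 and 0.710 above). Heat-shock genes stood at 0.909 (0.866 in cells up to 48 and 1.01 above). The p53 targets had a ratio of 0.799 (0.659 to 0.967), with 3 of 19 above 100 UMIs. Cohesin genes stood at 0.889 and translation elongation genes at 1.08. Recombination and fork checkpoint genes stood at 1.11, but at 0.948 with 8 cells in each set and 0.941 after thinning. Nuclear long non-coding RNAs stood at 1.29, but only 1 of 5 members (MALAT1) was above 1 and the median member ratio was 0.975. Their sum was 1.90 in cells numbered up to 48 and 0.661 in cells above 48.

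Other genes varied between cells within a set. The nuclear RNA MALAT1 had 3.55 to 46.2 per 10000 in high cells (median 16.6) and 1.12 to 30.7 in low cells (median 8.67), a ratio of 1.51 (1.37 to 1.65) that was as low as 1.38 (without high cell 31) as each cell was left out, and 0.677 among cells numbered above 48. Among immediate-early genes, whose sum had a ratio of 1.01 (0.783 with 8 cells in each set), DUSP1 had 48 UMIs in high cells and 16 in low cells, a ratio of 3.13 (1.75 to 5.90), whereas EGR1 had 20 in high cells and 51 in low cells, a ratio of 0.41 (0.23 to 0.70) that was 1.49 among cells numbered up to 48. The keratin gene KRT18 had 44 UMIs in high cells and 81 in low cells, a ratio of 0.57 (0.38 to 0.83), whereas its partner keratin gene KRT8 had 33 UMIs in high cells and 26 in low cells, a ratio of 1.32 (0.77 to 2.30). ATAD2, an E2F target, had a ratio of 2.09 that was 1.16 without high cell 32. Markers of kidney epithelium, 5 of 15 with a row, had a summed ratio of 0.775 (0.577 to 1.04), with KRT18 and KRT8 holding 77 of 84 UMIs in high cells and 107 of 113 in low cells, those of fibroblasts 1.09 (0.890 to 1.35; 0.813 with 8 cells in each set), and those of blood and immune cells, 4 of 12 with a row, held 5 UMIs in high cells and 11 in low cells.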
